A study of Equus caballus with 20 samples.

Results

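The interaction of pregnancy and ovulation side asks whether the expression difference between pregnant and cyclic mares is the same in the oviduct beside the ovulating ovary as in the opposite one. It was measured by RNA sequencing of oviduct epithelium of Warmblood mares, taken where ampulla and isthmus meet, 4 days after ovulation. Pregnant mares gave an ipsilateral group (PI), from the oviduct on the side of ovulation, and a contralateral group (PC), from the opposite oviduct. Cyclic mares, which were not pregnant, gave CI and CC in the same way, with 5 libraries in each of the 4 groups. Libraries are named by group and replicate number, as in PI1. All 20 of the 20 libraries of the series entered the contrast (PI minus PC) minus (CI minus CC), taken on a log2 scale, so a positive value means a larger ipsilateral minus contralateral difference in pregnant than in cyclic mares. Of the 26740 features in the deposited table, 14692 exceeded 1 CPM (counts scaled to the library total) in at least 5 libraries and were tested. The labels number the replicates within each group without saying what a number shares across groups. If a number marks 1 mare, the 20 libraries come from 10 mares. The main fit treated the libraries as separate, so its p-values measure the spread between libraries and not that of side differences within a mare. Same-numbered pregnant libraries deviated together from their group means, with correlations of 0.530 to 0.700. In cyclic mares these correlations ran from −0.0408 to 0.679. A fit that takes the number as a block is given at the end.

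The equine oviduct is where the egg is fertilised and the early embryo spends its first days before it enters the uterus. Its epithelium holds multiciliated cells, which move gametes and embryo, and secretory cells, which condition the fluid around them. In a pregnant mare an embryo is present on the ovulation side only, while both oviducts share the maternal circulation. A pregnancy difference that depends on the side shows up in the interaction, whereas one that is alike on both sides cancels out of it. A side difference that is alike in pregnant and cyclic mares cancels out as well.

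Reads recovered from the table numbered 2795168 to 6536856 per library in PI, 5522831 to 10015464 in PC, 3856941 to 10126484 in CI and 3407805 to 9849146 in CC. On the log2 scale mean depth was 0.44 lower in PI than in PC and 0.22 higher in CI than in CC, an interaction of −0.66 in depth alone. The most abundant feature, ENSECAG00000014226, has no symbol in the file and took over 10% of the reads in PI1, PI4 and CI3. The epithelial gene EPCAM averaged 1567 ± 302 normalized counts in PI, 1838 ± 382 in PC, 1885 ± 512 in CI and 1884 ± 359 in CC (SD, n = 5), and FOXJ1, which drives the motile cilia programme, averaged 3896 to 5016 in the 4 groups. PTPRC, a marker of all leukocytes, averaged 182 to 336. OVGP1, the oviduct-specific glycoprotein of secretory cells, lay near the counting floor, with means of 3.02 to 6.66.

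No gene passed the test of the interaction. The limma model, fitted to log2 of the normalized count plus a pseudocount of 3.03, called 0 of 14692 features at a Benjamini-Hochberg adjusted p under 0.05 (0.0%), and every adjusted p was 1.0 after rounding, so the genes named below did not pass. Their log2 interactions are given with the standard error (SE) of that model and, where shown, its 95% confidence interval. At an unadjusted p under 0.05 there were 47 features (0.32%), of which 27 had a positive interaction (0.184%) and 20 a negative one (0.136%). Chance alone would put about 1 in 20 features under that threshold, so the 47 were fewer than chance gives. The p-values of this fit may therefore be too large and its intervals too wide. Its spread includes what same-numbered libraries share, which in pregnant mares deviated together with correlations of 0.530 to 0.700. The part of this in the low count was not tested. With the replicate number as a block the count was 267. On counts of whole reads, edgeR gave 0 adjusted calls and 39 unadjusted ones (0.265%), of which 27 were among the 47. DESeq2 gave 0 adjusted calls and 49 unadjusted ones (0.334%), of which 33 were among the 47. Over all tested features 56.6% of the limma estimates were negative and 43.4% positive, and the median interaction was −0.04. This split depended on the fit, with 50.8% negative by edgeR, 47.5% by DESeq2 and 49.1% with log2 reads as a covariate. The lowest estimate was −2.05, for the chemokine CXCL10, and 72 features lay above 1 (0.49%) and 95 below −1 (0.647%).

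The precision of these estimates depended on the level of the gene. The median 95% confidence interval reached 0.735 to either side of the estimate over all features, 1.29 for the 1482 features averaging under 10 normalized counts and 0.584 for the 1123 features averaging over 1000. These are medians, and single features had narrower or wider intervals. Of the 47 features at an unadjusted p under 0.05, 22 averaged under 10 normalized counts and 8 were listed by an Ensembl identifier only. The count of 47 also hung on single libraries. It was 30 without PC4, 108 without PC1, 97 without CI3, 87 without CC2, 86 without PI4 and 73 without PI3.

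**Figure D1:**
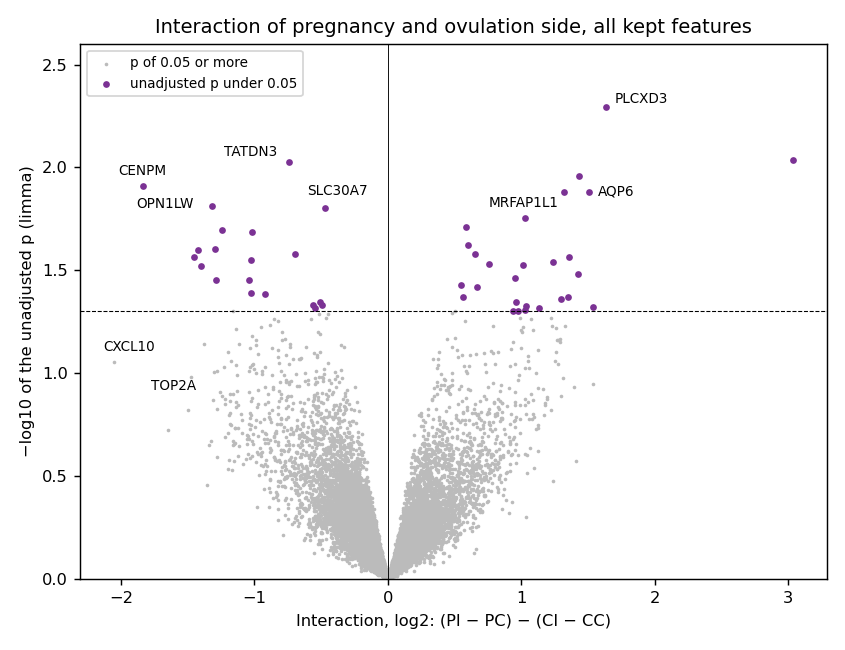
Interaction of each tested feature on the log2 scale (horizontal axis) against −log10 of its unadjusted limma p (vertical axis), with the 47 features of the smallest p in purple above a dashed line at the unadjusted threshold of 0.05. The named genes sit at the edges of the cloud, among them CXCL10 at −2.05 and PLCXD3 at 1.63, and no feature passed the adjusted threshold.

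Among the features with a positive interaction, PLCXD3 had the smallest p. It encodes a protein with a phospholipase C X domain. PLCXD3 had 9.37, 14.6, 3.39, 13.4 and 7.09 normalized counts in PI1 to PI5, against 6.46, 1.89, 3.12, 7.60 and 2.22 in PC1 to PC5. In the cyclic mares it had 0.966, 7.15, 0, 2.40 and 1.07 in CI1 to CI5 and 3.95, 5.49, 4.80, 5.01 and 11.5 in CC1 to CC5. Higher values thus lay on the ovulation side in pregnant mares and on the other side in cyclic mares, with overlap between the sides in each status. The interaction was 1.63 ± 0.52 (SE; 95% interval 0.55 to 2.72), made of a side difference of 0.77 ± 0.37 in pregnant and −0.86 ± 0.37 in cyclic mares. No library held more than 15 reads of PLCXD3.

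Better measured genes had smaller estimates. CDC23, a subunit of the anaphase-promoting complex that releases cells from mitosis, had 117, 107, 143, 127 and 120 normalized counts in PI1 to PI5, against 81.8, 112, 105, 101 and 87.6 in PC1 to PC5. It had 65.7, 78.7, 112, 84.8 and 114 in CI1 to CI5 and 89.6, 92.1, 96.0, 135 and 137 in CC1 to CC5. All PI libraries but PI2 exceeded every PC library, while the cyclic groups overlapped broadly. The interaction of CDC23 was 0.60 ± 0.25 (SE). CTGF, a matricellular protein and a known target of the Hippo pathway, averaged 195 ± 46.8 in PI, 160 ± 20.3 in PC, 145 ± 36.6 in CI and 191 ± 42.3 in CC, an interaction of 0.66 ± 0.27. PSTK, the kinase that acts on the seryl-tRNA used to make selenocysteine, averaged 72.1 ± 10.6 in PI, 58.1 ± 10.5 in PC, 58.8 ± 10.5 in CI and 71.4 ± 5.04 in CC. Its estimate was 0.58 ± 0.23. In all of these genes the groups overlapped. Their side differences in pregnant and cyclic mares were of opposite sign, which choosing genes by the p of the interaction favours: it held for 47 of the 47 features, against 39.8% of all tested features.

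The other genes of this direction were low or moderate in level. MRFAP1L1 averaged 29.6 ± 11.4 in PI, 17.8 ± 4.94 in PC, 19.5 ± 5.09 in CI and 27.7 ± 9.55 in CC, an interaction of 1.03 ± 0.40 (SE). AQP6, an aquaporin known from intracellular vesicles of the kidney, had an estimate of 1.51 ± 0.55 at group means of 3.07 to 9.58 normalized counts. CAPN11, a calpain protease, stood at 1.43 ± 0.62, FAM186A at 1.36 ± 0.57 and TSSK3, a kinase of the testis-specific serine kinase family, at 1.02 ± 0.43. GTPBP8, a GTP-binding protein, had 0.76 ± 0.33. ZBTB46, a transcription factor of classical dendritic cells, averaged 23.1 ± 9.06 in PI, 14.7 ± 5.88 in PC, 17.3 ± 4.20 in CI and 24.7 ± 9.05 in CC, an estimate of 0.95 ± 0.42. Of the features without a symbol, ENSECAG00000004104 and ENSECAG00000002930 had estimates of 1.43 ± 0.51 and 1.32 ± 0.49.

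On the negative side, TATDN3 had the smallest p. It belongs to a family of putative deoxyribonucleases. TATDN3 had 32.8, 49.6, 47.5, 25.2 and 49.6 normalized counts in PI1 to PI5, against 51.7, 50.9, 51.0, 47.9 and 55.4 in PC1 to PC5. In cyclic mares it had 59.9, 59.6, 50.4, 53.6 and 61.1 in CI1 to CI5 and 42.2, 50.6, 42.2, 45.1 and 34.5 in CC1 to CC5. The sides barely overlapped in either status, and PI1 and PI4, the libraries of fewest reads in their group that are also rich in the unnamed feature, were the lowest of the pregnant ones. The interaction was −0.74 ± 0.26 (SE; 95% interval −1.28 to −0.20), and −0.50 without PI1, PI4 and CI3.

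CENPM, a protein of the inner kinetochore, had 7.03, 0.972, 11.03, 13.4 and 4.72 normalized counts in PI1 to PI5, against 6.46, 14.1, 24.98, 35.1 and 9.98 in PC1 to PC5. It had 8.69, 5.96, 7.20, 6.40 and 8.57 in CI1 to CI5 and 0, 7.93, 10.6, 1.67 and 0 in CC1 to CC5. PC4 and PC3 were the highest libraries, and CC1 and CC5 held no read. The interaction of CENPM was −1.83 ± 0.67 (SE), and −0.90 at a pseudocount of 2 CPM. SLC30A7, a zinc transporter of the early secretory pathway, had one of the narrowest spreads: 136 ± 9.89 in PI, 161 ± 22.3 in PC, 157 ± 16.3 in CI and 132 ± 13.6 in CC. Its interaction was −0.47 ± 0.18 (SE). SLC27A3, of the fatty acid transport protein family, averaged 18.1 ± 8.34 in PI, 30.4 ± 7.80 in PC, 32.1 ± 9.68 in CI and 25.1 ± 7.71 in CC, an interaction of −1.02 ± 0.41, which was −0.64 with log2 reads as a covariate. VAMP3, a vesicle fusion protein, averaged 23.0 ± 4.94, 28.1 ± 5.35, 32.2 ± 3.29 and 23.3 ± 4.79 in PI, PC, CI and CC, an interaction of −0.70 ± 0.29.

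**Figure D2:**
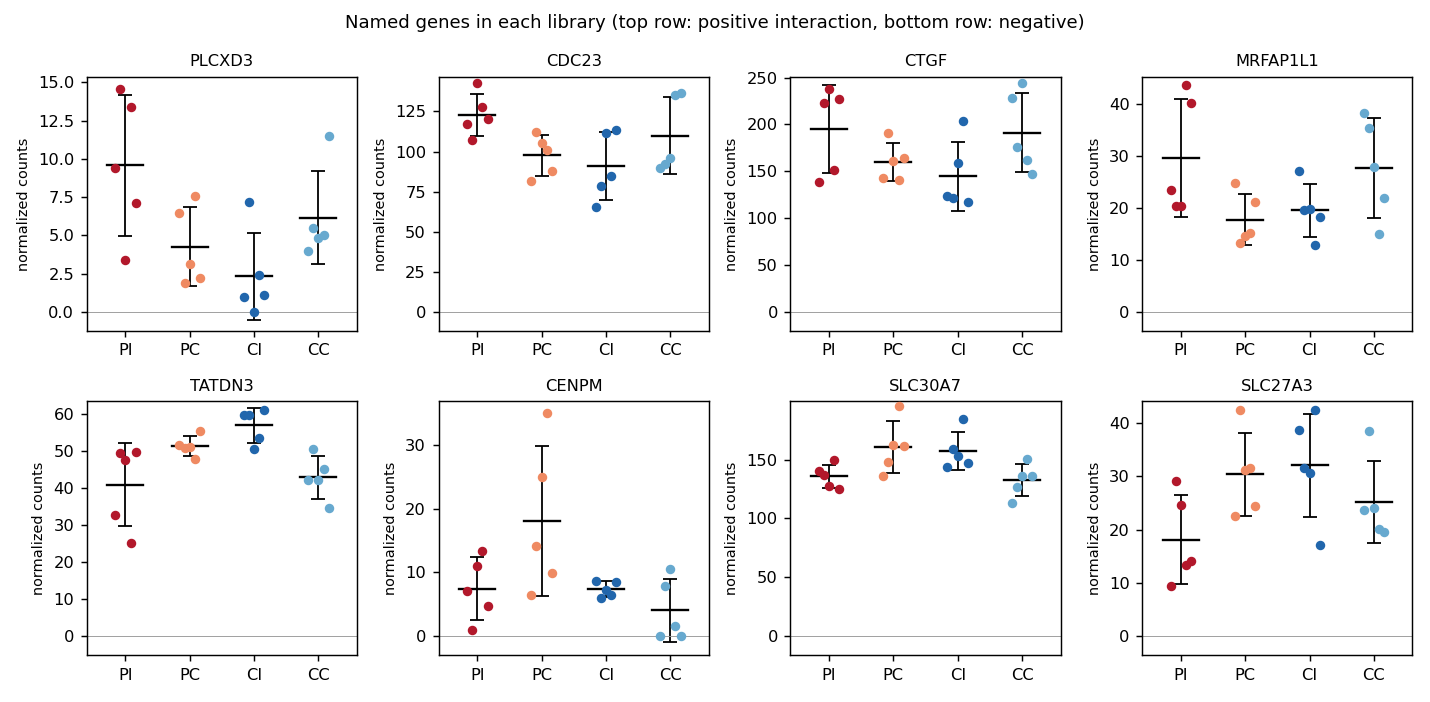
Normalized counts of 8 named genes in each library (points) with the group mean and SD (bars) for PI, PC, CI and CC. In the top row the means are highest in PI or CC, and in the bottom row in PC or CI; the groups overlap in every panel.

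The rest on this side were mostly genes of low level, some of them known from immune cells. NKG7, a protein of cytotoxic granules, averaged 4.15 ± 2.39 in PI, 7.53 ± 5.65 in PC, 7.03 ± 3.79 in CI and 2.72 ± 1.23 in CC, an interaction of −1.24 ± 0.49 (SE). TNFSF8, the CD30 ligand, had −1.42 ± 0.59 at means of 2.69 to 7.27 normalized counts. OPN1LW, a cone opsin, had −1.32 ± 0.50, INCA1, an inhibitor of cyclin-dependent kinase, −1.30 ± 0.54, and CYP3A93, an equine cytochrome P450, −1.45 ± 0.61. RIMKLA, an N-acetylaspartylglutamate synthase, had −1.40 ± 0.60. POLR2K, a small subunit shared by the nuclear RNA polymerases, averaged 12.9 ± 6.15 in PI, 23.6 ± 5.90 in PC, 23.4 ± 9.92 in CI and 19.1 ± 7.29 in CC, an estimate of −1.03 ± 0.44, or −0.53 with log2 reads as a covariate. Values of NKG7, TNFSF8, OPN1LW, INCA1, CYP3A93 and RIMKLA rest on at most 29 reads in any library.

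Gene families were described by the sign and median of their members, beside the 56.6% of negative signs and the median of −0.04 over all tested features. Counts of members at an unadjusted p under 0.05 are to be set beside the 0.32% of all tested features. Members of a family share libraries, so their signs are not independent of each other. The family furthest from 0 was that of the mitotic spindle and kinetochore, the machinery that separates chromosomes: 65 of its 66 measured members had a negative interaction, 0 had an unadjusted p under 0.05, and the median was −0.80. Its only positive member was CENPA, the histone of centromeres, at 0.22 ± 0.56, named after its value was seen. The median side difference was −0.34 in pregnant mares and 0.52 in cyclic mares. Pregnant minus cyclic, the median was 0.10 on the ovulation side and 0.94 on the other side. As background for these component differences, unadjusted p-values under 0.05 were found for 0.762% of all features in PI minus PC, 0.286% in CI minus CC, 3.5% in PI minus CI and 4.55% in PC minus CC, with 0 adjusted limma calls (0.0%) in each.

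The list level, taken as the mean log2 level of the 66 genes in a library, was 5.94, 5.42, 6.95, 7.31 and 5.08 in PI1 to PI5, against 5.95, 6.08, 6.83, 7.77 and 5.58 in PC1 to PC5. It was 6.05, 6.44, 5.81, 5.44 and 6.55 in CI1 to CI5 and 4.54, 5.70, 5.71, 5.99 and 6.02 in CC1 to CC5. The 4 groups overlapped, PI and PC spread widely, and CC1 lay below all other libraries. The interaction of the list level was −0.76, against a pooled SD within groups of 0.75. This SD, here and for the lists below, is that of single libraries and not that of a difference of group means. The median over members of the mitotic spindle and kinetochore list was −0.45 without PC4, −0.52 without PI5, −0.54 without CC1 and −1.12 without PI4. It kept its sign in all 43 alternative fits, although the limma fits with the block on all libraries and with no filter on low values could not change it.

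TOP2A and CDK1 had the same order of group means as the list, highest in PC and lowest in CC. TOP2A, the topoisomerase that untangles chromosomes before division, had 239, 180, 648, 1003 and 102 normalized counts in PI1 to PI5, against 269, 348, 618, 1728 and 225 in PC1 to PC5. It had 356, 509, 258, 158 and 498 in CI1 to CI5 and 64.6, 216, 251, 259 and 318 in CC1 to CC5. PI4 and PC4 were high and CC1 low. The interaction of TOP2A was −1.31 ± 0.85 (SE; 95% interval −3.07 to 0.45). CDK1, the mitotic cyclin-dependent kinase, averaged 70.0 ± 50.7 in PI, 95.3 ± 75.3 in PC, 55.4 ± 18.1 in CI and 42.2 ± 21.9 in CC, an interaction of −0.97 ± 0.74. The smallest p-values of the list belonged to SPC24, of the outer kinetochore, at −1.14 ± 0.57, the kinase MELK at −0.99 ± 0.52, the kinesin KIF18B at −1.28 ± 0.74 and the condensin subunit NCAPD2 at −1.04 ± 0.60. WDR62, a spindle pole protein outside the list, averaged 48.1 ± 34.7 in PI, 55.7 ± 27.4 in PC, 50.7 ± 17.99 in CI and 24.1 ± 8.76 in CC, an interaction of −1.29 ± 0.57.

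Histones followed, with 29 of 29 negative and a median of −0.70. Their transcripts rise when DNA is copied, and many lack a polyA tail. Histone copies are near identical, so reads could have been split between them. The histone list level was 6.51, 6.65, 7.38, 7.91 and 6.47 in PI1 to PI5, 6.54, 7.24, 7.21, 8.44 and 6.74 in PC1 to PC5, 7.10, 6.92, 6.63, 6.48 and 7.24 in CI1 to CI5 and 5.98, 6.82, 6.81, 6.21 and 6.86 in CC1 to CC5. PC4 was again the highest library and CC1 the lowest. The interaction of this level was −0.59 against an SD within groups of 0.55, and the median over members was −0.23 without PC4, −0.38 without PI5, −0.42 without PI1 and −0.46 without CC4. H2AFZ, a variant histone, averaged 36.2 ± 15.4 in PI, 53.0 ± 27.8 in PC, 37.5 ± 10.02 in CI and 29.7 ± 10.3 in CC, an interaction of −0.82 ± 0.46. HIST1H2AG had −1.48 ± 0.87.

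DNA replication genes had a negative interaction in 36 of 40 members, with a median of −0.34, and cell cycle regulators in 22 of 28, with a median of −0.27. MCM2, part of the replicative helicase, averaged 272 ± 109 in PI, 355 ± 181 in PC, 250 ± 67.9 in CI and 243 ± 54.3 in CC, an interaction of −0.37 ± 0.44 (SE). CDC6 and ORC1, which load the helicase on origins, had −1.38 ± 0.73 and −0.86 ± 0.53. Among the regulators, CDK2, a kinase of entry into S phase, had −0.73 ± 0.46 and FOXM1, a transcription factor of mitotic genes, −0.98 ± 0.81. Kinesins were negative in 26 of 38, with a median of −0.14, and those nearest the top, such as KIF14 at −1.26 ± 0.78 and KIF11 at −1.28 ± 0.85, act in cell division. The median of the cell cycle regulators was −0.15 without PC4 and −0.41 without PI4. For DNA replication the median was −0.17 without PC4, −0.52 without PI4 and −0.16 with log2 reads as a covariate.

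Leukocyte markers were unequal between libraries. The summed level of 24 measured T and NK cell markers ranged from 439 to 980 normalized counts in PI, 535 to 1649 in PC, 330 to 1099 in CI and 325 to 674 in CC, and that of 20 myeloid markers from 999 to 3425 in PI, 1421 to 4889 in PC, 1144 to 2972 in CI and 1244 to 2753 in CC. PC4 had the highest list level of T and NK markers, of myeloid markers and of all 4 proliferation lists, and the most reads of its group. On the mitotic list PI4, the highest PI library, had 4415169 reads, and PI2, the deepest PI library, stood at 5.42. The deepest CI library, CI2 with 10126484 reads, stood at 6.44, below CI5 only. The deepest CC library, CC2 with 9849146 reads, stood at 5.70. The part of depth in these values was not tested. With log2 reads as a covariate the mitotic median was −0.56 and the histone median −0.25. The part of leukocytes in the proliferation values was not tested. In bulk tissue, fewer cells of a type and less RNA per cell cannot be told apart.

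**Figure D3:**
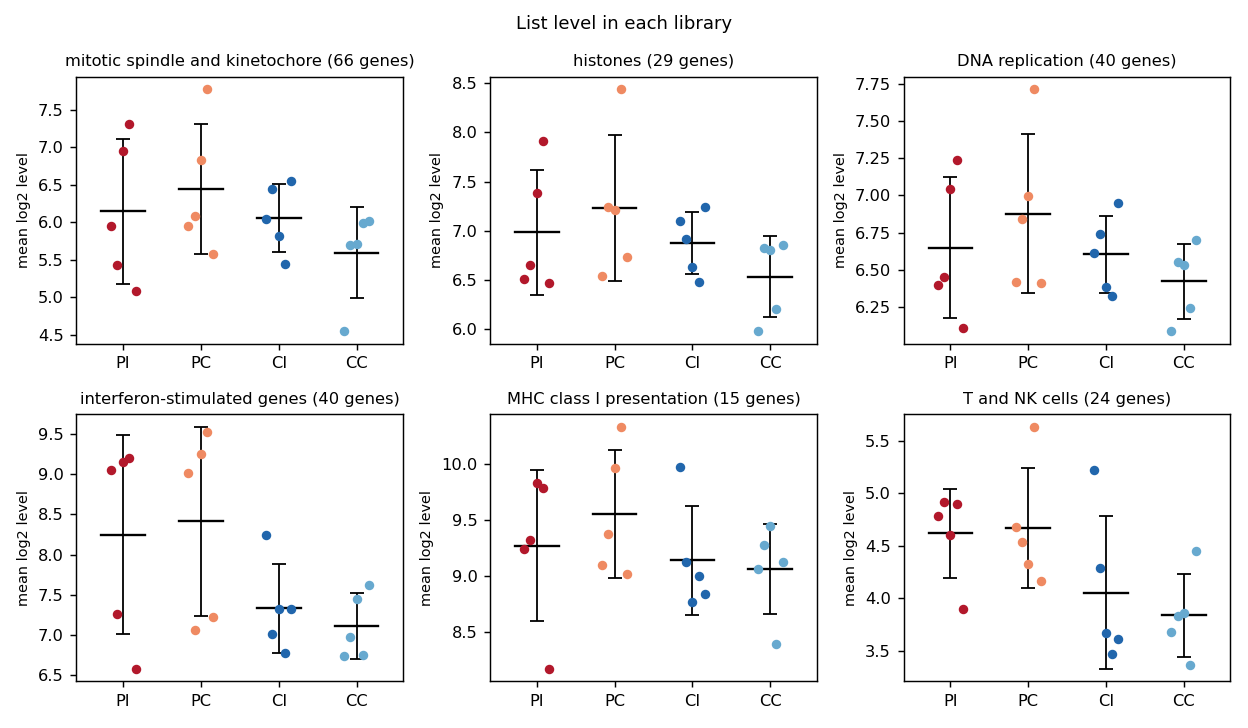
Mean log2 level of 6 gene lists in each library (points), with the mean and SD of each group (bars), for PI, PC, CI and CC. Groups overlap in every panel, and PC4, at 7.77 for the mitotic list, is the highest library in all 6.

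Immune lists also had negative medians. Interferon-stimulated genes, the antiviral genes that interferons switch on, were negative in 38 of 40 members with a median of −0.36, but the spread between libraries was larger than in any proliferation list. Their list level was 9.05, 7.26, 9.15, 9.21 and 6.58 in PI1 to PI5, against 9.02, 7.07, 9.26, 9.53 and 7.22 in PC1 to PC5, so that numbers 1, 3 and 4 were high and 2 and 5 low on both sides. In the cyclic groups it was 8.24, 7.004, 7.32, 6.78 and 7.32 in CI1 to CI5 and 6.74, 6.98, 7.45, 6.74 and 7.63 in CC1 to CC5. The interaction of the list level was −0.39. The pooled SD of single libraries within groups was 0.92, part of which same-numbered pregnant libraries shared. The list's median over members was 0.01 when PI5 was left out, −0.76 without PC2 and −0.99 without PI1, PI4 and CI3. Leaving out both libraries of a number, in a fit with the number as a block, gave −0.51 to −0.10. It was −0.26 without pregnant pair 5 and −0.43 without pregnant pair 2. Pregnant minus cyclic, the median was 0.83 on the ovulation side and 1.24 on the other side.

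ISG15, a ubiquitin-like modifier, had 330, 33.1, 264, 381 and 22.4 normalized counts in PI1 to PI5, against 310, 21.7, 285, 461 and 46.6 in PC1 to PC5. It had 86.9, 16.1, 27.0, 22.4 and 40.7 in CI1 to CI5 and 19.8, 36.0, 33.6, 13.4 and 42.5 in CC1 to CC5. The ipsilateral and contralateral libraries of pregnant mares thus spanned nearly the same range. The interaction of ISG15 was −0.39 ± 1.14 (SE; 95% interval −2.77 to 1.99), and that of MX1, an antiviral GTPase, −0.27 ± 0.78. Leaving out PI5 changed the sign of both estimates: ISG15 stood at 0.19 without PI5 and −1.01 without PC2, and MX1 at 0.25 without PI5 and −0.66 without PC5. In these fits the same-numbered library of the other side stayed in. BST2, which tethers budding virus, and GBP5, a guanylate-binding protein, had −0.88 ± 0.83 and −0.93 ± 1.00.

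CXCL10, a chemokine that draws T cells and is itself induced by interferon, had the lowest estimate of all features. It had 44.5, 35.004, 115, 161 and 9.45 normalized counts in PI1 to PI5, against 45.2, 36.8, 248, 244 and 73.2 in PC1 to PC5. In cyclic mares it had 275, 90.6, 18.01, 22.4 and 39.6 in CI1 to CI5 and 5.27, 8.54, 43.2, 20.04 and 95.4 in CC1 to CC5. All groups overlapped, and CI1 was the highest library. The interaction of CXCL10 was −2.05 ± 1.15 (SE; 95% interval −4.44 to 0.34), and −1.48 without CI1. CXCL11, a close relative, had −1.33 ± 1.03. CXCR4, the receptor of CXCL12, averaged 167 ± 48.1 in PI, 225 ± 65.9 in PC, 203 ± 45.8 in CI and 176 ± 18.8 in CC, an interaction of −0.62 ± 0.33. Over all 22 measured chemokines and receptors 15 were negative, with a median of −0.13.

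Antigen presentation genes had mostly negative estimates. MHC class I presentation genes were negative in 15 of 15 members with a median of −0.34, and MHC class II presentation genes in 10 of 14 with a median of −0.30. TAP1, which carries peptides to class I molecules, had −0.77 ± 0.82, and IFI30, a lysosomal reductase of the class II route, −0.82 ± 0.53. CD74, the class II invariant chain, averaged 38710 ± 16460 in PI, 40760 ± 15065 in PC, 26759 ± 17745 in CI and 20800 ± 3433 in CC, an interaction of −0.32 ± 0.49 (SE), which was 0.01 without CI1. The class II median was −0.06 without PI5, −0.08 without CI1 and −0.05 with library weights. The class I median was −0.13 without PI5 and −0.14 without PC4, and 0.03 with log2 reads as a covariate, so its sign depended on that term. Closely related MHC genes share sequence, and their counts are uncertain for that reason.

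T and NK cell markers were negative in 19 of 24 members with a median of −0.28. It was 0.02 without CI1, −0.03 without PI5 and −0.001 without PC4, but −0.65 by edgeR and −0.61 by DESeq2 on whole reads. NKG7 was the only member with an unadjusted p under 0.05, against 0.32% of all tested features. The opposite end was LAT, a T cell signalling adaptor, at 0.84 ± 0.71. CD7, a T cell surface protein, had −1.30 ± 0.75. Myeloid markers were negative in 16 of 20 with a median of −0.25, 0.01 without PC4 and 0.12 with log2 reads as a covariate. Among them ZBTB46 alone had an unadjusted p under 0.05, against the same 0.32% of all tested features. B and plasma cell markers were negative in 9 of 11 with a median of −0.19. PTPRC had −0.28 ± 0.53, and 0.07 without CI1. Interleukins and their receptors were negative in 25 of 32 with a median of −0.16, complement and coagulation genes in 20 of 28 with a median of −0.16, and TNF superfamily members and receptors in 10 of 18 with a median of −0.05.

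Energy and protein synthesis genes had mostly negative interactions. Nuclear-encoded genes of the respiratory chain, the electron transport of mitochondria, were negative in 46 of 47 members with a median of −0.31. The exception was SDHD, a subunit of complex II, at 0.60 ± 0.61, named after its value was seen. NDUFA1, a complex I subunit, averaged 116 ± 38.9 in PI, 174 ± 45.3 in PC, 135 ± 29.7 in CI and 127 ± 42.8 in CC, an interaction of −0.73 ± 0.39 (SE). Here the median side difference was −0.34 in pregnant and −0.04 in cyclic mares. The respiratory chain median was −0.13 without CC4 and −0.47 without PC1. With log2 reads as a covariate it was 0.14, so its sign depended on that term.

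Cytoplasmic ribosomal proteins were negative in 55 of 63 members with a median of only −0.09, which was 0.12 without CC4, −0.38 without PI2 and 0.56 with log2 reads as a covariate. Their levels were unequal between libraries, from 10.13 in PI1 to 12.33 in CC2 on the mean log2 scale. The 13 mitochondrially encoded genes were negative in 12 with a median of −0.25, which was −0.48 without PC4 and 0.09 without CI3, the library of highest level at 13.62. Genes of endoplasmic reticulum folding and stress were negative in 21 of 23 with a median of −0.19, cholesterol and fatty acid synthesis genes in 24 of 34 with a median of −0.13, and cathepsins in 9 of 12 with a median of −0.21. EBP, an isomerase of cholesterol synthesis, had −0.49 ± 0.29, and HSP90AA1, the abundant cytosolic chaperone, −0.36 ± 0.43.

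Genes of the ciliated epithelium stayed close to 0. Of 39 multiciliated structure genes, 24 were negative and 15 positive, with a median of −0.07 and a range from −0.43 to 0.21. FOXJ1 averaged 4704 ± 1085 in PI, 5016 ± 1009 in PC, 3896 ± 91.4 in CI and 4021 ± 824 in CC, an interaction of −0.08 ± 0.25 (SE; 95% interval −0.61 to 0.45). TEKT2, a tektin of the axoneme, had −0.43 ± 0.35, which was −0.12 without CC4, and RSPH1, a radial spoke protein, −0.32 ± 0.28. DNAH17, an axonemal dynein heavy chain known from sperm tails, had the highest estimate of the 17 measured axonemal dyneins. It had 39.8, 27.2, 41.6, 65.4 and 50.8 normalized counts in PI1 to PI5, 27.99, 21.7, 24.98, 13.4 and 18.8 in PC1 to PC5, 19.3, 11.3, 45.0, 6.40 and 35.4 in CI1 to CI5 and 14.5, 7.93, 18.2, 66.8 and 58.6 in CC1 to CC5. All PI libraries but PI2 exceeded every PC library, and the cyclic groups each held high and low values. The interaction of DNAH17 was 1.29 ± 0.68, while the 17 axonemal dyneins together had a median of 0.03. Of these 17, 0 had an unadjusted p under 0.05. Regulators of the multiciliated fate had a median of −0.06, with GMNC, which starts the multiciliated programme, at 0.62 ± 0.50 and FOXN4, another factor of that programme, at −1.14 ± 0.90.

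Secretory cell markers were negative in 12 of 15 members with a median of −0.22. OVGP1 had −0.39 ± 0.59 (SE) at its low level, LTF, the iron-binding lactoferrin, −0.68 ± 0.71, and SOX17, a transcription factor of the oviduct lineage, −0.49 ± 0.45, which was −0.09 without CC4. Ion channel and fluid secretion genes were negative in 21 of 30 with a median of −0.15; KCNMA1, a large-conductance potassium channel, had 0.43 ± 0.27 and KCNN4, a calcium-activated one, −1.01 ± 0.57. Mucins had 4 of 5 negative with a median of −0.18. Solute carriers, the largest family of transporters, were negative in 154 of 254 with a median of −0.06. Of these 254 members 3 had an unadjusted p under 0.05, against 0.32% of all tested features. They were SLC30A7 and SLC27A3, given above, and SLC24A4, an exchanger of sodium, calcium and potassium, at 0.94 ± 0.45.

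Hormone and signalling lists had medians between −0.15 and 0.02. Steroid receptor and response genes were positive in 9 and negative in 11 of 20, with a median of −0.03. ESR1, the main estrogen receptor of the oviduct, averaged 1796 ± 415 in PI, 1994 ± 441 in PC, 2447 ± 179 in CI and 2739 ± 1004 in CC, an interaction of −0.09 ± 0.35 (SE; 95% interval −0.80 to 0.63), which was 0.13 without CC4. Prostaglandin pathway genes were negative in 11 of 16 with a median of −0.15. PTGES, a prostaglandin E synthase, stood at 0.75 ± 0.62. WNT and Notch genes had 26 positive and 20 negative members and a median of 0.02.

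Growth and embryotrophic factors were positive in 25 of 44 members with a median of 0.02. KITLG, the ligand of the KIT receptor, was the only one at an unadjusted p under 0.05, against 0.32% of all tested features. KITLG had 16.4, 23.3, 7.64, 20.1 and 10.6 normalized counts in PI1 to PI5, against 4.31, 15.1, 4.16, 14.6 and 14.4 in PC1 to PC5. It had 23.2, 26.8, 10.8, 12.0004 and 9.64 in CI1 to CI5 and 27.7, 28.1, 21.1, 23.4 and 17.2 in CC1 to CC5. The CC libraries were high as a group and the PC libraries low, with overlap of both with the ipsilateral ones. The interaction of KITLG was 1.03 ± 0.49 (SE). BMP2, a bone morphogenetic protein, and NRG1, a ligand of ERBB receptors, had 1.26 ± 0.68 and 1.08 ± 0.75, and IGFBP3, which binds insulin-like growth factors, 0.85 ± 0.58.

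Few lists had positive medians. HOX genes, which mark position along the body axis and the reproductive tract, were positive in 11 of 14 measured members with a median of 0.22. HOXC6 averaged 6.80 ± 2.44 in PI, 2.50 ± 1.04 in PC, 4.30 ± 1.75 in CI and 5.93 ± 5.33 in CC, an interaction of 0.97 ± 0.47 (SE). HOXB2, at a higher level, averaged 92.8 ± 21.5, 70.5 ± 16.7, 72.5 ± 10.4 and 76.2 ± 12.6 in PI, PC, CI and CC, an interaction of 0.45 ± 0.28. The HOX list level had an interaction of 0.25 against an SD within groups of 0.25, and the median over members was 0.09 without CI4 and 0.39 without PI3. ADAMTS metalloproteases were positive in 12 of 17 with a median of 0.28, 0.15 without PC2 and −0.07 with log2 reads as a covariate. Zinc finger proteins, a family of mostly DNA-binding factors, were positive in 160 of 252 with a median of 0.07. Collagens were positive in 19 of 33 with a median of 0.11, and keratins and squamous genes in 7 of 12 with a median of 0.09.

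Markers of other cell types gave no single direction. Endothelial markers were positive in 10 of 16 with a median of 0.18, and all 4 of their smallest p-values, including those of the angiopoietin receptor TEK at 0.89 ± 0.84 and the VEGF receptor FLT1 at 0.73 ± 0.64, belonged to positive members. Of 5 mesothelial markers 4 were positive, with a median of 0.33 and LRRN4 at 1.00 ± 0.51. Stromal fibroblast markers were negative in 16 of 25 with a median of −0.14, and smooth muscle markers in 8 of 14 with a median of −0.03. Granulosa and luteal markers, which would come from ovarian tissue, were negative in 5 of 7 with a median of −0.22. Neutrophil and mast cell genes had 3 and erythrocyte genes 1 measured member.

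The remaining families were claudins, serpins, integrins, cadherins and protocadherins, potassium channels, extracellular proteases and their inhibitors, immediate-early and heat shock genes, toll-like receptors, cytochromes P450 and uterine gland genes. Their medians lay between −0.18 for the cytochromes P450 and 0.01 for the potassium channels and uterine gland genes. The cytochromes P450 were negative in 18 of 23. Their list level had an interaction of −0.23 against an SD within groups of 0.16, and that of the kinesins −0.27 against 0.22. A ranking of lists by the median does not take this spread into account. TIMP4, an inhibitor of matrix metalloproteases, had −1.16 ± 0.56 and MMP14, a membrane-bound metalloprotease, −0.52 ± 0.35 (SE). Over the lists with at least 5 measured members, the mitotic list thus had the lowest median, and the 5 mesothelial markers the highest.

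**Figure D4:**
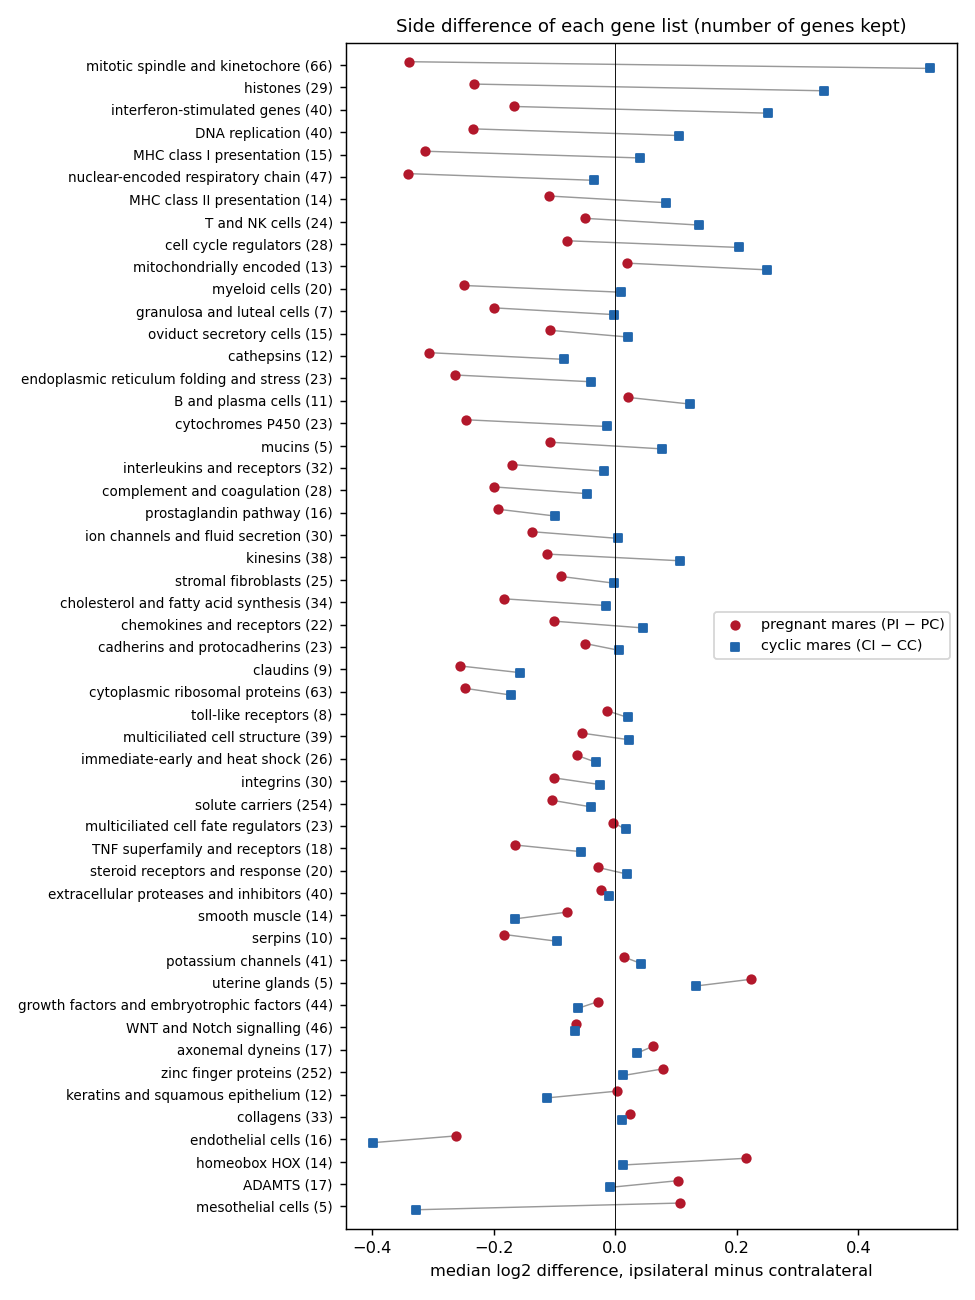
Median log2 difference, ipsilateral minus contralateral, of each gene list with at least 5 measured members in pregnant mares (circles, PI minus PC) and cyclic mares (squares, CI minus CC), ordered by the interaction with the most negative on top; numbers in brackets are measured members. The mitotic list has the widest gap, −0.34 in pregnant against 0.52 in cyclic mares, while multiciliated structure genes lie near 0 in both.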

How the data were processed

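RNA was sequenced from 20 oviduct epithelium libraries. Per the labels' protocols, a stranded kit for total RNA with ribosomal RNA depletion was used, although another label gives polyA RNA. CASAVA 1.8 is named in the submitters' processing notes; aligner, counter, build and annotation are not stated in the sources used here, and no coordinates are printed. The authors deposited TMM-normalized counts per feature, a signal in which each library's read counts are multiplied by 1 factor. Whole reads were recovered from the steps of these values: 100% came out whole within 0.01 reads. A floor of 3 reads equals 1.75 to 7.03 normalized counts and covers counting error only. Overlapping genes and near-identical copies are uncertain.

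Features above 1 CPM in at least 5 of 20 libraries were kept (14692, of which 12430 had a symbol). One limma model (3.58.1, R 4.3.3) of 4 group means was fitted to log2 of the value plus 0.5 CPM (3.03 normalized counts), with trend and robust moderation, 2-sided, Benjamini-Hochberg at 0.05. Log2 differences on this scale understate those of low genes. Alternatives were edgeR 4.0.16 and DESeq2 1.42.0 on recovered reads, other scalings, filters and pseudocounts, library weights, log2 reads as a covariate, a block by replicate number, and left-out libraries. The procedure was also run on simulated counts of independent libraries, with large interactions planted in well measured genes. That setting covers neither small interactions, nor low genes, nor variation shared between libraries.

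The genes named are those of smallest p that have a symbol, 12 in each direction, 12 fixed genes (MKI67 was not found under that symbol), the 5 in each direction with the smallest p under the block, up to 4 of the smallest p per list, and 2 Ensembl identifiers; others are said to be chosen after their values were seen. A gene that this rule picks is not reported here. The members and lists were chosen with earlier results of these data known.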

Additional observations from a re-analysis of the deposited data

Results flagged for a closer look

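In groups of 5 libraries, a library was singled out when its gap to the nearest of the others exceeded 0.71 of the group's range. Of 184 groups tested, 11 met this, and chance gives about 1 in 20. Values are log2 of normalized counts plus the pseudocount, or the mean of these over a list. In CC1, the list of the mitotic spindle and kinetochore stood at 4.544 (the other CC libraries at 5.699 to 6.019), TOP2A at 6.079 (others 7.775 to 8.328) and CDK1 at 3.452 (others 5.469 to 6.147); a low CC1 lowers the interaction of these, and the list median was −0.54 without it. In CC4, MCM2 was low at 7.229 (others 8.019 to 8.135), OVGP1 was high at 3.88 (others 1.601 to 2.122) and PSTK was high at 6.378 (others 6.153 to 6.218). In CC5, PLCXD3 was high at 3.861 (others 2.805 to 3.092).

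PTPRC was high in PC4 at 9.465, against 7.791 to 8.083 in the other PC libraries. CD74 was high in CI1 at 15.836, against 14.139 to 14.244 in the other CI libraries. ESR1 was low in PI1 at 10.065, against 10.895 to 11.05 in the other PI libraries. The mitochondrially encoded list was high in CI3 at 13.619, against 11.678 to 12.121 in the other CI libraries.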

How the results depend on the processing

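No feature had an adjusted p under 0.05, either as reported or in any of the 43 alternatives. The number of features at an unadjusted p under 0.05, 47 as reported, was 39 by edgeR, 49 by DESeq2, 187 with no filter on low values, 20 with a filter at 5 CPM, 159 with library weights, 144 with log2 reads as a covariate and 87 without PI1, PI4 and CI3. Leaving out 1 library or 1 same-numbered pair in turn gave 30 to 1076, the highest without cyclic pair 3 in the blocked fit.

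With the replicate number as a block the count was 267 (92 positive, 0.626%, and 175 negative, 1.19%, of all tested features), 247 by edgeR and 213 by DESeq2, again with no adjusted call; 46 of the 47 were among the 267. Same-numbered libraries did not all deviate together: the correlation of deviations from the group means was 0.530 to 0.700 in the 5 pregnant pairs but −0.0408 to 0.679 in the 5 cyclic ones, and 5 of 5 PI but 3 of 5 CI libraries correlated best with their own number. The labels do not say what a number shares and 2 cyclic pairs did not deviate together, so pairing was not taken as given. Every number has a library of both sides, so the block cannot change the limma estimates, and the list medians are the same by design. Under it the smallest p-values were those of CAPN11, PLCXD3, MRFAP1L1, AQP6 and STK39 among positive and UHRF1, WDR62, CDCA3, ZNF367 and FGFR4 among negative genes.

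The medians of the mitotic, histone, DNA replication, cell cycle, MHC class II and HOX lists kept their sign in all 43 alternatives. Among these, the limma fits with the block on all libraries and with no filter on low values could not change a median. Those of interferon-stimulated genes (without PI5), MHC class I, respiratory chain and ADAMTS genes (log2 reads as a covariate) changed sign in 1, those of T and NK cells in 2, of myeloid cells and mitochondrially encoded genes in 3 and of ribosomal proteins in 7; the cause was not tested. Leaving out 1 library or another moved the medians of all 14 lists examined by over 1.5 times, and the interactions of 164 of the 241 genes picked by the naming rule, of which 22 changed sign. With 2795168 reads in PI1, 3 reads there equal 7.03 normalized counts, which limits what can be said of genes averaging under 10.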
